A study of Mus musculus with 3 samples.

Results

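The Adgre4/Gpr141 nuclei are monocyte-like macrophage nuclei of the mouse abdominal aorta. They were taken from nuclei with at least 500 unique molecular identifiers (UMIs, 1 per captured RNA molecule), at least 300 detected genes and under 5% mitochondrial UMIs. A nucleus passed a macrophage gate with at least 2 of Csf1r, Mertk, Adgre1, Ms4a7, Cd68 and Ctss detected, and was then kept with at least 2 of Adgre4, Gpr141, Klra2 and F10 detected. Nuclei with 10 or more UMIs per 10000 of Mmp12 or of F13a1, or with more than 1 of Cd5l, Abcg3, Cd38 and Ccdc148, were left out, since those genes mark other macrophage groups of this tissue. The rule gave 305 of 30730 nuclei (members in the figures), namely 5 of 5707 in the aneurysm library, 209 of 14001 in the smoke library and 91 of 11022 in the room air library. The nuclei were thus chosen by measured values of these genes, so the levels of the rule's own genes are given as a description.

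Single-nucleus RNA sequencing was carried out on abdominal aortae of ApoE-/- mice on the C57Bl/6 strain, all on a high fat diet for 20 weeks. ApoE-/- mice lack apolipoprotein E and develop hypercholesterolaemia and atherosclerotic plaques, so every group, the air control included, carries the deletion and the diet. The 3 groups were cigarette smoke with an abdominal aortic aneurysm, cigarette smoke without one, and room air, each with 1 library of total nuclei. How many aortae went into a library, and the age and sex of the mice, were not given in the sources used here. With 1 library per group there is no replicate spread, so no p-value is given, and a difference between libraries cannot be told apart from a difference between single preparations. The 95% intervals (exact Poisson for levels, Clopper-Pearson for shares, exact conditional for ratios) cover counting error only.

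Monocytes are the circulating precursors of many tissue macrophages. In the mouse, classical monocytes carry Ly6C and the chemokine receptor CCR2 and enter inflamed tissue, whereas nonclassical, patrolling monocytes carry little Ly6C, depend on the nuclear receptor NR4A1 and crawl along the endothelium with the integrin LFA-1. In atherosclerotic aorta, monocyte-derived cells become inflammatory macrophages or lipid-laden foam cells, while resident macrophages of the adventitia carry LYVE1 and MRC1. Adgre4 (ENSMUSG00000032915) encodes an adhesion G protein-coupled receptor of myeloid cells, Gpr141 (ENSMUSG00000053101) an orphan G protein-coupled receptor, Klra2 (ENSMUSG00000030187) a lectin-like receptor of the Ly49 family and F10 (ENSMUSG00000031444) coagulation factor X.

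The start-site regions of the 3 receptor genes are shown because detection of these genes together defines the nuclei. Each runs from 250 bases before to 50 bases after the RefSeq gene start on GRCm38.p6, 5′ to 3′ on the gene's strand. Adgre4 lies at chr17:55749734-55750033 on the plus strand, Gpr141 at chr13:19824208-19824507 on the minus strand and Klra2 at chr6:131247313-131247612 on the minus strand. Capitals mark matches on either strand to 3 letter strings linked to myeloid transcription factors.
Adgre4: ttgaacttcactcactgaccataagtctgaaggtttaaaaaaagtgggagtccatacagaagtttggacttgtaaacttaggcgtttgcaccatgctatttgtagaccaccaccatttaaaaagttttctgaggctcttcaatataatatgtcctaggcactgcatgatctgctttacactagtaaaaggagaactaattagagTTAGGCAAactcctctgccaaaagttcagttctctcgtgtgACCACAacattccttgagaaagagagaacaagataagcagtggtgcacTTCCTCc
Gpr141: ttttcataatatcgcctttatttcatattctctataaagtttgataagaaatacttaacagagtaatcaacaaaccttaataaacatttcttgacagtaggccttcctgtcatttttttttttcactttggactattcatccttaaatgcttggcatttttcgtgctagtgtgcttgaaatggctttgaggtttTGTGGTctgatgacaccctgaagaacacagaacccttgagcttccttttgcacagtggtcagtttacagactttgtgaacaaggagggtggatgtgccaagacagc
Klra2: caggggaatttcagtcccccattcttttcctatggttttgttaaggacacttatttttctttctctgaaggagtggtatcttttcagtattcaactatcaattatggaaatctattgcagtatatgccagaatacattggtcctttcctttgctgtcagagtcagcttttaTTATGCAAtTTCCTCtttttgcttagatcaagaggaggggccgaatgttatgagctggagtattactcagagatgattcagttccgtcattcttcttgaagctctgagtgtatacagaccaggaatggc
The core bound by PU.1 was searched as GAGGAA, which reads TTCCTC on the other strand. The RUNX string was TGTGGT, read as ACCACA on the other strand, and the C/EBP string was TTGCNNAA, read as TTNNGCAA on the other strand. Of 32851 start-site regions of the same length, 28.3% held the PU.1 core, 16.8% the RUNX string and 10.8% the C/EBP string. Adgre4 held all 3, with the C/EBP string beginning at position -46, the RUNX string at -5 and the PU.1 core at 44, counted from the gene start. Klra2 held the C/EBP string at -79 and the PU.1 core at -70, and Gpr141 held the RUNX string at -56. The region of F10 held none of the 3. The matches describe letters in these windows and say nothing of binding.

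Depth differed between the libraries. The median nucleus held 1443 UMIs in the aneurysm library, 6225 in the smoke library and 4058.5 in the room air library, and the Adgre4/Gpr141 nuclei had medians of 1379, 5131 and 4524 UMIs in that order, so the subset holds 12147, 1336611 and 517722 UMIs in all. The 10 largest nuclei gave 17.5% of the subset's UMIs in smoke and 28.7% in room air. Macrophage-gated nuclei made up 18.7% of the aneurysm library, 66.9% of the smoke library and 58.7% of the room air library. The subset's median mitochondrial share was 0.707% in the aneurysm library, 0.499% in smoke and 1.45% in room air, against 0.713%, 0.226% and 0.580% in all gated nuclei. Between 26 and 46 cell barcodes were shared by each pair of libraries.

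Adgre4/Gpr141 nuclei made up 0.469% of the gated nuclei in the aneurysm library (0.152 to 1.09), 2.23% in the smoke library (1.94 to 2.55) and 1.41% in the room air library (1.13 to 1.72). Of all nuclei they were 0.0876% (0.0285 to 0.204), 1.49% (1.30 to 1.71) and 0.826% (0.665 to 1.01) in the same order. The share of gated nuclei in the smoke library was 1.59 times that in room air (1.24 to 2.05), and the aneurysm library had 0.210 of the smoke share (0.0675 to 0.498) and 0.333 of the room air share (0.106 to 0.807). Detecting 2 genes of 4 depends on depth, so nuclei were also thinned to a fixed number of UMIs. The gate and the rule were then applied again. Nuclei with under 1000 UMIs could not enter at 1000 UMIs. That left out 1692, 933 and 1036 nuclei in the aneurysm, smoke and room air libraries. The Adgre4/Gpr141 nuclei of the aneurysm library with 569 and 990 UMIs were among them. Gated nuclei then numbered 535, 4749 and 3317. At 1000 UMIs the rule kept 1, 33 and 10 nuclei in the aneurysm, smoke and room air libraries, and the smoke share of gated nuclei was 2.30 times that of room air (1.11 to 5.24). At 500 UMIs it kept 1, 8 and 7 nuclei, and that ratio was 0.772 (0.245 to 2.50), on the other side of 1. At 1000 UMIs, with 1 nucleus in the aneurysm library, its share was 0.0986 of the smoke share over all nuclei (0.00242 to 0.589) and 0.269 of it over gated nuclei (0.00661 to 1.61). The first interval lies below 1 and the second holds 1, and at 500 UMIs both hold 1, at 0.307 (0.00691 to 2.29) and 0.786 (0.0177 to 5.86).

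**Figure D1:**
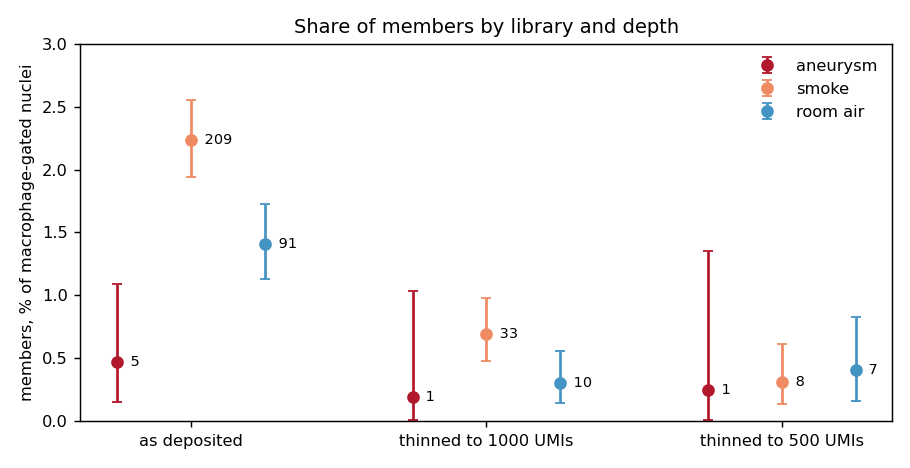
Share of macrophage-gated nuclei (percent, vertical axis) that met the Adgre4/Gpr141 rule in the aneurysm, smoke and room air libraries, as deposited and after thinning, with Clopper-Pearson 95% intervals. Nuclei with fewer UMIs than the thinning target were left out, and the gate was applied again after thinning. At the deposited depth the smoke library is highest at 2.23%, and at 500 UMIs per nucleus the intervals of all 3 libraries overlap.

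Detection of the rule genes was also counted in other cell types, since free RNA in the droplets can give UMIs in nuclei that do not express a gene. At least 2 of the 4 genes were detected in 1.12% of gated macrophage nuclei in the aneurysm library, 4.10% in smoke and 2.83% in room air. Among nuclei with endothelial markers and no macrophage gene the counts were 0 of 667, 0 of 440 and 1 of 518, and among those with smooth muscle markers 0 of 334, 0 of 276 and 0 of 279. Fibroblast nuclei gave 0 of 1085, 1 of 694 and 0 of 717, and adipocyte nuclei 0 of 795, 1 of 85 and 0 of 32. At least 1 of the 4 genes was detected in 9.65%, 21.5% and 17.5% of gated nuclei, against 1.65%, 3.64% and 4.44% of endothelial nuclei. Asking for no macrophage gene leaves out nuclei that caught free macrophage RNA, so shares in these cell types, here and below, can understate it. The smoke endothelial set was 440 nuclei as deposited and 1365 after thinning to 1000 UMIs.

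Few nuclei carried the whole set. In smoke, 137 of the 209 nuclei had 2 of the 4 genes, 56 had 3 and 16 had all 4. In room air 69 of 91 had 2, 22 had 3 and none had 4, and in the aneurysm library all 5 had 2. Gpr141 was detected in 4, 171 and 67 nuclei of the aneurysm, smoke and room air libraries and Adgre4 in 3, 120 and 43, while both together were detected in 2, 95 and 30. Summed over the subset, Adgre4 was at 601 CPM in smoke and 462 CPM in room air, where CPM are UMIs per 1000000 UMIs of the subset, against 7.03 and 4.50 CPM in the other gated nuclei. Gpr141 was at 615 CPM in smoke and 459.7 CPM in room air (others 18.6 and 13.1 CPM) and Klra2 at 198 CPM in smoke and 168 CPM in room air (others 7.01 and 6.81 CPM). F10 was at 251 CPM in smoke and 207 CPM in room air (others 15.9 and 21.0 CPM). Of the macrophage genes of the gate, Csf1r, the receptor for the growth factor CSF1, was at 323 CPM in smoke and 232 CPM in room air, against 95.7 and 80.3 CPM in the others. Mertk, a receptor for apoptotic cells, was at 471 CPM in smoke and 446 CPM in room air, against 1227 and 1168 CPM.

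Several genes outside the rule were higher in nuclei with more of the rule genes. Median depth was alike along this series, from 5121 to 6093 UMIs in smoke and from 3984 to 4524 in room air. Itgal, the alpha chain of LFA-1, was at 522 CPM in smoke nuclei with 3 or 4 of the genes, 129 CPM in those with 2, 28.3 CPM in the 700 nuclei just outside with 1, and 6.96 CPM in the 4077 with 0. The same series in room air was 508, 147, 26.2 and 6.95 CPM. Plac8, a small protein of monocytes and other leukocytes, ran 284, 65.4, 17.4 and 5.65 CPM in smoke, highest with the most rule genes. Ccr2 did not follow that order, with 124 CPM at 3 or 4 genes and 128 CPM at 2 genes in smoke, and 36.3 and 118 CPM in room air. Gpnmb, a lysosomal glycoprotein of foam cells, was lowest where the set was fullest, but it did not rise steadily with fewer rule genes. Smoke nuclei had 224 CPM with 3 or 4 genes, 1054 CPM with 2, 1573 CPM with 1 and 881 CPM with 0. Room air nuclei had 236, 412, 1522 and 885 CPM in the same order. At the Mmp12 limit, 10 smoke and 8 room air nuclei had 5 to 10 UMIs per 10000 and stayed inside, while 3 and 2 had 10 to 15 and fell outside. Of 384 smoke and 183 room air gated nuclei with at least 2 of the 4 genes, the Mmp12 limit took out 39 and 19. The F13a1 limit then took out 20 and 9. The limit on Cd5l, Abcg3, Cd38 and Ccdc148 took out the most, 116 and 64, and without it the rule kept 325 and 155 nuclei.

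**Figure D2:**
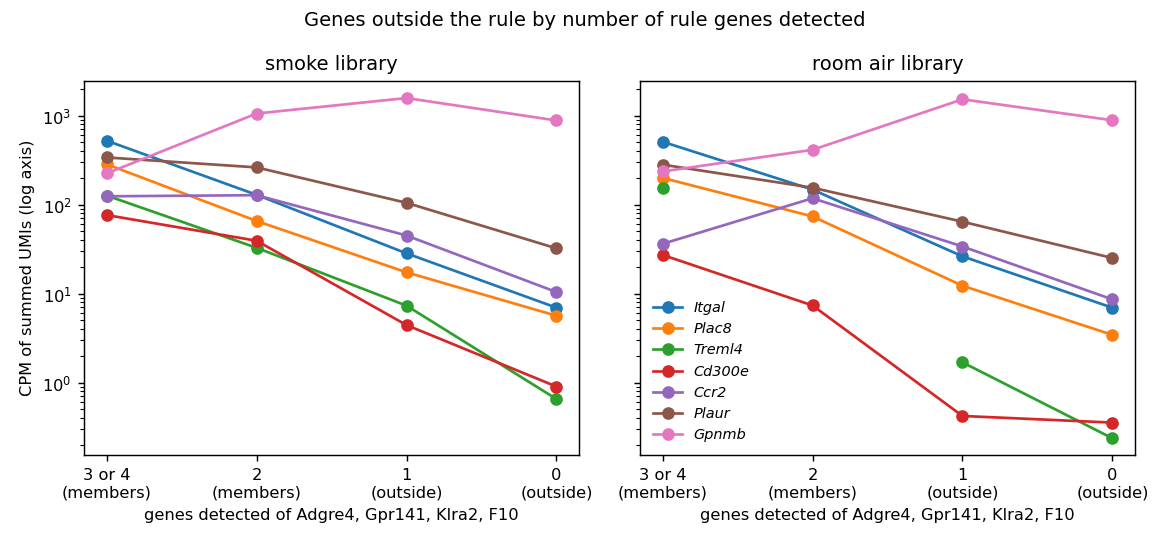
Levels (CPM, log axis) of genes that the rule did not use in gated nuclei with 3 or 4, 2, 1 and 0 of Adgre4, Gpr141, Klra2 and F10 detected, for the smoke and room air libraries, after the other limits of the rule. Itgal and Plac8 are highest with 3 or 4 genes and lowest with 0, and Gpnmb is lowest with 3 or 4; Treml4 had no UMI at 2 genes in room air and has no point there.

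Levels of Itgal, Plaur and Cxcl2 and of lists of monocyte genes are given beside the label. These genes and lists were chosen with earlier results of these data known, and Itgal is also on the nonclassical and adhesion lists. The values therefore describe the subset and are no independent check of its name. Itgal was at 252 CPM in smoke (226 to 281) and 224 CPM in room air (185 to 269), against 7.89 and 8.54 CPM in the other gated nuclei, ratios of 32.0 (28.0 to 36.5) and 26.2 (21.1 to 32.3). Plaur, the urokinase receptor, was at 286 CPM in smoke and 182 CPM in room air, against 51.3 and 35.7 CPM. Cxcl2, a neutrophil chemoattractant, was at 248 CPM in smoke and 112 CPM in room air, against 66.0 and 33.6 CPM. An Itgal UMI was found in 49.8% of smoke nuclei and 41.8% of room air nuclei of the subset, against 5.40% and 4.26% of the other gated nuclei and 0.682% and 1.74% of endothelial nuclei. The corresponding shares after thinning to 1000 UMIs were 25.4% and 18.7%, against 1.11% and 0.953% of other gated nuclei. In the aneurysm library Itgal, Plaur and Cxcl2 had 0 UMIs, where the smoke levels would give 3.06, 3.47 and 3.02 UMIs at this depth. The levels given beside the name thus come from the smoke and room air libraries only.

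Genes of both monocyte classes were present. Of the nonclassical genes, Nr4a1 was at 189 CPM in smoke and 131 CPM in room air (others 27.8 and 16.2 CPM). Spn, which encodes CD43, was at 44.9 CPM in smoke and 40.6 CPM in room air (others 4.96 and 2.92 CPM). Treml4, a receptor of patrolling monocytes, was at 62.1 CPM in smoke and 32.8 CPM in room air (others 1.17 and 0.346 CPM). Cd300e, an activating receptor of monocytes, was at 50.9 CPM in smoke and 11.6 CPM in room air (others 0.893 and 0.346 CPM). Treml4 and Cd300e were high relative to the other gated nuclei but were detected in few nuclei, with a UMI in 19.1% and 16.3% of smoke nuclei and 6.59% and 5.49% of room air nuclei, against 0% and 0% of smoke and 0.193% and 0.193% of room air endothelial nuclei. Of the classical genes, Ccr2 was at 126 CPM in smoke and 100.4 CPM in room air (others 13.7 and 10.8 CPM). Chil3, a chitinase-like secreted protein, was at 19.5 CPM in smoke and 17.4 CPM in room air (others 0.653 and 0.151 CPM). Ly6c2, the Ly6C gene that defines classical monocytes, had only 12 UMIs in 5 smoke nuclei, and 18 of its 20 room air UMIs came from 1 nucleus. By 15 genes of the lists (7 classical and 8 nonclassical; a split made after the values were seen), 93 of 209 smoke nuclei and 26 of 91 room air nuclei had a UMI of both classes. These shares were 44.5% and 28.6%, against 5.96% and 2.12% of other gated nuclei and 2.50% and 1.54% of endothelial nuclei. Median UMIs were 5131 and 4524 in the subset, against 6058 and 4086 in endothelial nuclei. Nonclassical genes alone were found in 27.3% and 30.8%, at or below the 39.8% and 31.5% of endothelial nuclei, so that count does not set the subset apart from them. In other gated nuclei it was 22.9% and 16.3%. At least 2 of the 8 nonclassical genes were found in 43.1% and 23.1% of the subset. The same count was 4.09% and 3.28% in endothelial nuclei and 4.48% and 2.16% in other gated nuclei. The neutrophil genes S100a8 and S100a9 had no UMI in any of the 305 nuclei.

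Against the other gated nuclei, 16.6% of 7304 genes measured in smoke were at least 1.5-fold higher in the Adgre4/Gpr141 nuclei and 18.8% at least 1.5-fold lower, and in room air 20.5% and 15.6% of 4474 genes. The 15 higher and 10 lower genes named next are those whose 95% counting bound nearest 1 lay farthest from 1, taking the less extreme library. All 15 also had ratios of at least 1.5 in both libraries over the Mmp12-high gated nuclei, and 14 of them over the F13a1-high gated nuclei. Of the 10 lower genes, 4 were at least 1.5-fold lower in both libraries than in the Mmp12-high nuclei and 4 than in the F13a1-high nuclei. Dnah12 and Arhgef37 stood beside Itgal at the head of the list. Dnah12, an axonemal dynein heavy chain, was at 69.6 CPM in smoke and 63.7 CPM in room air, against 1.72 and 0.735 CPM. Arhgef37, a guanine nucleotide exchange factor family member, was at 74.8 CPM in smoke and 71.5 CPM in room air, against 2.50 and 1.82 CPM. Plac8 stood at 134 CPM in smoke and 100.4 CPM in room air, against 5.86 and 2.90 CPM, with ratios of 22.8 (19.2 to 27.1) and 34.7 (24.7 to 48.1). Il1b, encoding the inflammatory cytokine interleukin-1 beta, stood at 139.9 CPM in smoke and 63.7 CPM in room air, against 8.86 and 7.59 CPM. Clec4e, the receptor Mincle that senses mycobacterial glycolipid and dead cells, was at 114 CPM in smoke and 73.4 CPM in room air, against 5.18 and 6.34 CPM. Their ratios were 15.8 and 22.0 in smoke and 8.40 and 11.6 in room air.

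The receptors Sirpb1a, Sirpb1b and Sirpb1c, activating members of the signal regulatory protein family, had ratios of 12.9, 11.2 and 10.2 in smoke and 10.3, 8.72 and 12.2 in room air. They are near-identical copies and the split of reads between them is uncertain. Srgn, the granule proteoglycan serglycin, had the most UMIs of the 15, at 930.0 CPM in smoke and 1088 CPM in room air, against 144 and 109.7 CPM. Plbd1, a phospholipase B-like protein, was at 260.4 CPM in smoke and 236 CPM in room air, against 33.7 and 22.3 CPM. Dusp5, a phosphatase of ERK kinases, was at 107 CPM in smoke and 112 CPM in room air. Napsa, an aspartic protease, was at 69.6 CPM in smoke and 57.9 CPM in room air. The ratios of Dusp5 and Napsa were 7.75 and 8.11 in smoke and 11.6 and 11.5 in room air. Being higher in both libraries was a condition for naming these genes.

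**Figure D3:**
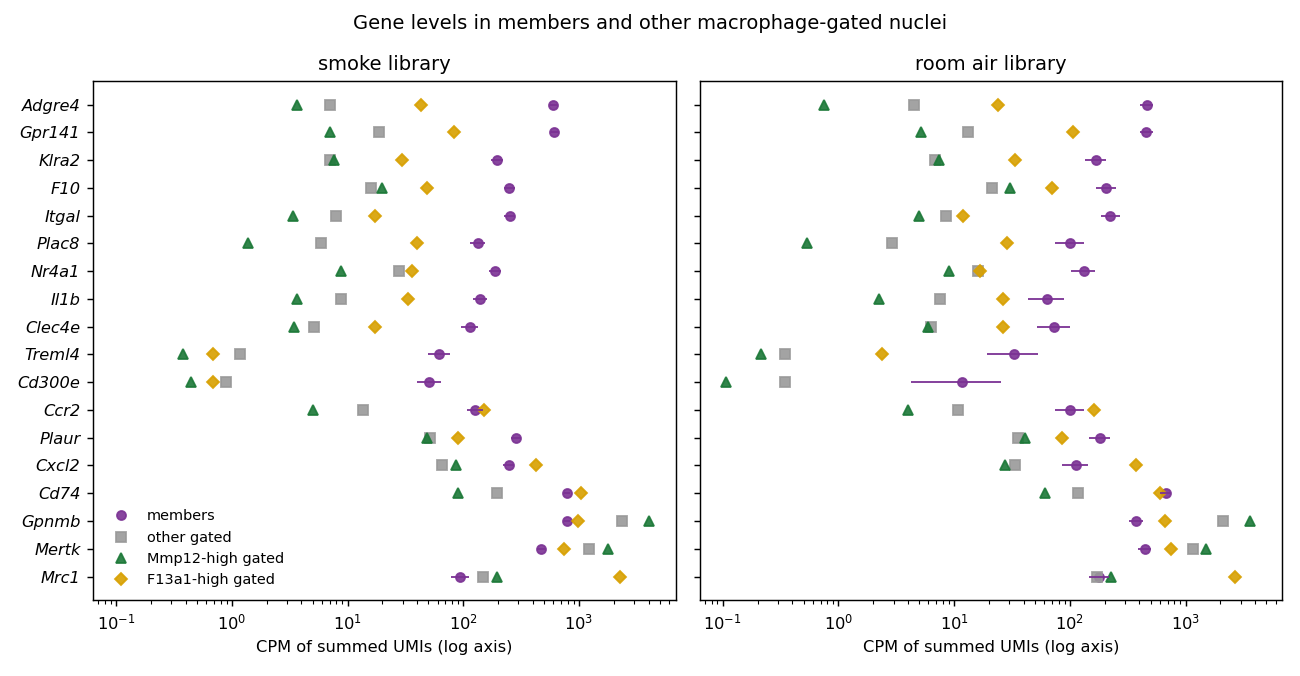
Levels (horizontal axis, CPM on a log scale) of the 4 rule genes and 14 other genes in the Adgre4/Gpr141 nuclei, the other gated nuclei, the Mmp12-high gated nuclei and the F13a1-high gated nuclei of the smoke and room air libraries; bars on the Adgre4/Gpr141 points are exact Poisson 95% intervals. Itgal lies at 252 CPM in smoke and 224 CPM in room air in the Adgre4/Gpr141 nuclei (members), against 7.89 and 8.54 CPM in the other gated nuclei. Cd300e had no UMI in the F13a1-high nuclei of room air and has no point there.

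The 10 genes lowest against the other gated nuclei were mostly genes with higher levels outside the macrophage gate. Grin2a, a glutamate receptor subunit, was at 27.7 CPM in smoke and 3.86 CPM in room air, against 226 and 154 CPM in other gated nuclei and 635 and 572 CPM in nuclei outside the gate. Fat1, an atypical cadherin, was at 20.9 CPM in smoke and 7.73 CPM in room air, against 149.9 and 96.5 CPM. Itgbl1, an integrin beta-like secreted protein, was at 59.1 CPM in smoke and 40.6 CPM in room air, against 339 and 247 CPM. Of the 10, 7 genes (Grin2a, Trabd2b, Cemip, Fat1, Ctnna3, Itgbl1 and Sox6) had higher CPM outside the gate than in the other gated nuclei in both libraries, and the part of RNA from other cell types in the result was not tested. When nuclei with at least 2 markers of another cell class were left out on both sides, the log2 ratio was 0.97 for Grin2a, 1.41 for Cemip and 0.33 for Itgbl1 in smoke, and 0.37 for Ctnna3 and 0.49 for Itgbl1 in room air, with the sign turned. Such nuclei were 0% of the subset in the aneurysm library, 47.4% in smoke and 35.2% in room air, against 30.7%, 58.8% and 41.2% of the other gated nuclei. Dock3, a Rac exchange factor, was at 21.7 CPM in smoke and 7.73 CPM in room air, against 123 and 145 CPM. Mamdc2, a MAM-domain protein, and Mfge8, a bridge between apoptotic cells and phagocytes, were instead most abundant in the Mmp12-high nuclei. Mamdc2 was at 102 CPM in smoke and 143 CPM in room air, against 1800 and 1799 CPM in Mmp12-high nuclei, and Mfge8 at 22.4 CPM in smoke and 17.4 CPM in room air, against 258 and 293 CPM.

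Gene lists were compared in the same way. A list's median log2 ratio is taken over its measured genes (at least 20 UMIs), and higher and lower mean at least 1.5-fold. It stands beside a median over all genes of 0.016 in smoke and 0.092 in room air. The classical monocyte list had 7 of 8 measured genes (of 12 listed) at least 1.5-fold higher and 1 at least 1.5-fold lower, with a median log2 ratio of 2.46 in smoke. The room air values were 7 of 7 measured higher, 0 lower and a median log2 ratio of 3.16. Fn1, fibronectin, was the lower gene in smoke, at 259 CPM, against 681 CPM, and in room air it stood at 840.2 CPM, against 511 CPM. For the nonclassical list the counts were 8 of 9 measured higher, 0 lower and a median log2 ratio of 2.77 in smoke. In room air the list had 4 of 5 measured higher, 0 lower and a median log2 ratio of 2.61. Most MHC class II genes, which present antigen to T cells, were higher too, with 6 of 7 measured higher, 0 lower and a median log2 ratio of 1.93 in smoke. For room air the list gave 5 of 5 measured higher, 0 lower and a median log2 ratio of 2.08. Cd74, the invariant chain, was at 792 CPM in smoke and 676 CPM in room air, against 195 and 118 CPM. Ciita, the activator of class II transcription, was at 260.4 CPM in smoke and 245 CPM in room air, against 61.5 and 56.3 CPM.

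Inflammatory cytokines and their regulators showed 11 of 14 measured higher, 0 lower and a median log2 ratio of 1.55 in smoke. Room air gave 7 of 8 measured higher, 0 lower and a median log2 ratio of 0.77. Nlrp3, the inflammasome sensor, was at 165 CPM in smoke and 164 CPM in room air, against 43.0 and 38.9 CPM. Osm, the cytokine oncostatin M, was at 43.4 CPM in smoke and 69.5 CPM in room air, against 12.1 and 10.6 CPM. Acod1, which makes itaconate, was at 74.1 CPM in smoke and 59.9 CPM in room air, against 3.26 and 35.5 CPM, so its ratio was 22.7 in smoke and 1.69 in room air. Pattern recognition receptors had 6 of 13 measured higher, 0 lower and a median log2 ratio of 0.57 in smoke. The room air values were 4 of 7 measured higher, 1 lower and a median log2 ratio of 0.60. Tlr2, a receptor for bacterial lipoproteins, was at 56.9 CPM in smoke and 54.1 CPM in room air, against 9.94 and 10.8 CPM. Interferon-response genes had 9 of 10 measured higher, 0 lower and a median log2 ratio of 1.14 in smoke. In room air the list had 3 of 4 measured higher, 0 lower and a median log2 ratio of 0.64.

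Adhesion and migration genes were mostly higher. Leukocyte adhesion genes had 9 of 15 measured higher, 0 lower and a median log2 ratio of 0.64 in smoke. For room air the list gave 7 of 12 measured higher, 0 lower and a median log2 ratio of 0.78. Itga4, the alpha chain of VLA-4, was at 1005 CPM in smoke and 581 CPM in room air, against 201 and 164 CPM. Fyb, an adaptor that links receptors to integrin activation, was at 1936 CPM in smoke and 1522 CPM in room air, against 877 and 812 CPM. Chemoattractant receptors had 7 of 10 measured higher, 1 lower and a median log2 ratio of 1.34 in smoke. Room air gave 5 of 8 measured higher, 1 lower and a median log2 ratio of 0.93. Cx3cr1, the fractalkine receptor, was at 75.6 CPM in smoke and 86.9 CPM in room air, against 19.4 and 14.2 CPM. The urokinase and plasminogen list, which holds Plaur, was split, with 2 of 8 measured higher, 4 lower and a median log2 ratio of -0.42 in smoke. The room air values were 1 of 3 measured higher, 0 lower and a median log2 ratio of 0.39. The coagulation list besides F10 had 1 of 3 measured higher, 0 lower and a median log2 ratio of -0.36 in smoke. In room air the list had 0 of 2 measured higher, 0 lower and a median log2 ratio of 0.39.

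Foam cell and resident macrophage genes were mostly lower than in the other gated nuclei. The other gated nuclei still held those that the limits on Mmp12, F13a1 and the Cd5l set kept out of the subset. The part of these limits in the lower levels was not tested. Lipid-associated macrophage genes had 0 of 16 measured higher, 9 lower and a median log2 ratio of -0.83 in smoke. For room air the list gave 1 of 15 measured higher, 10 lower and a median log2 ratio of -0.64. Gpnmb was at 794 CPM in smoke and 375 CPM in room air, against 2347 and 2127 CPM. Gated nuclei within the same limits but with 0 of the 4 rule genes had 881 and 885 CPM of Gpnmb. Atp6v0d2, a subunit of the vacuolar proton pump, was at 358 CPM in smoke and 352 CPM in room air, against 1380 and 1555 CPM. Abca1, the cholesterol exporter, was at 1927 CPM in smoke and 1970 CPM in room air, against 3328 and 3597 CPM. Gpnmb had no UMI in 79 of 209 smoke nuclei and 42 of 91 room air nuclei, and the 10 nuclei with the most held 714 of its 1061 smoke UMIs. After thinning to 1000 UMIs, 27.3% of smoke and 33.0% of room air nuclei of the subset had a Gpnmb UMI, against 14.4% and 15.5% of endothelial nuclei and 53.7% and 57.9% of the other gated nuclei. Resident macrophage genes had 0 of 4 measured higher, 4 lower and a median log2 ratio of -1.16 in smoke. Room air gave 0 of 4 measured higher, 2 lower and a median log2 ratio of -1.41. Igf1, a growth factor of resident macrophages, was at 190.0 CPM in smoke and 131 CPM in room air, against 699 and 621 CPM, and Lyve1 had 1 UMI in smoke and 0 in room air. Matrix proteases and their inhibitors had 1 of 11 measured higher, 6 lower and a median log2 ratio of -0.72 in smoke. The room air values were 1 of 10 measured higher, 3 lower and a median log2 ratio of -0.37. Ctsl, a lysosomal protease, was at 206 CPM in smoke and 114 CPM in room air, against 592 and 466 CPM.

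**Figure D4:**
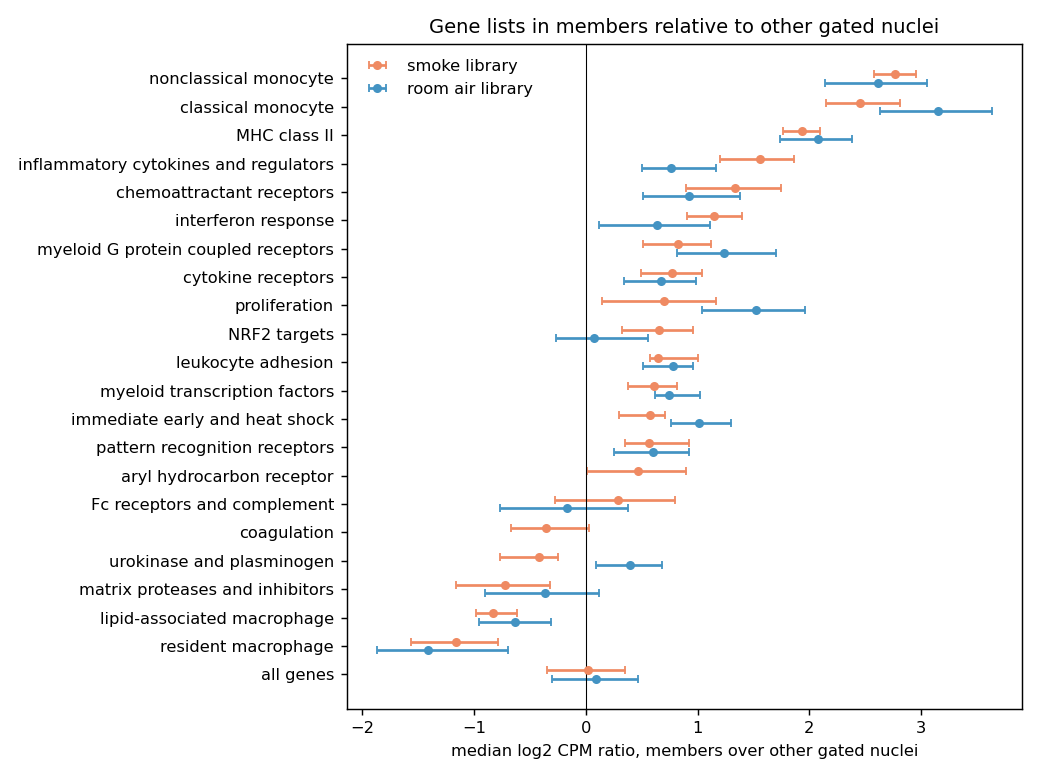
Median log2 ratio of each gene list, Adgre4/Gpr141 nuclei over the other gated nuclei, in smoke and room air; bars run from the median of the genes' lower counting bounds to the median of their upper bounds, and lists with under 3 measured genes are not drawn. Both monocyte lists and MHC class II lie above 1.9 in both libraries, and the resident and lipid-associated lists lie below 0.

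Against the 1325 smoke and 1028 room air Mmp12-high gated nuclei, 22.5% of 7044 smoke genes and 23.98% of 4354 room air genes were at least 1.5-fold higher, and 15.3% and 15.99% lower. Medians were 3.97 and 4.14 for the classical list in smoke and room air, 4.26 and 3.87 for the nonclassical list, 3.09 and 3.08 for MHC class II, and -1.35 and -1.07 for lipid-associated genes. Against the 248 smoke and 113 room air F13a1-high gated nuclei, where 18.01% of 7031 and 21.6% of 4280 genes were higher and 12.2% and 13.3% lower, the monocyte and resident lists differed while the MHC class II medians were near 0. The nonclassical list had medians of 3.70 and 2.18, the classical list 1.11 and 0.74, and MHC class II -0.036 and 0.15 with 0 genes past 1.5-fold in smoke. Of the classical genes, 5 of 8 measured were higher and 1 lower in smoke, and 4 of 7 and 2 in room air. Their summed level was below that of the F13a1-high nuclei, at 1538 and 2053 CPM, against 1725 and 2440 CPM. All 14 measured resident genes in smoke and all 5 in room air were at least 1.5-fold lower than in F13a1-high nuclei, with Mrc1, the mannose receptor, at 94.3 CPM in smoke and 179.6 CPM in room air, against 2257 and 2684 CPM. Cxcl2 was lower than in the F13a1-high nuclei, at 248 and 112 CPM, against 423 and 374 CPM. Chemoattractant receptors had medians of -0.56 and -0.73 over these nuclei. In smoke 3 of 10 were higher and 5 lower, and in room air 2 of 8 and 5. Inflammatory genes had medians of 0.18 and 0.41, and myeloid G protein-coupled receptors 0.17 and -0.069. Leukocyte adhesion genes had 0.74 and 0.70. Lipid-associated genes had -0.006 (3 of 16 higher, 1 lower) and 0.16 (3 of 15 higher, 1 lower).

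Markers of other cell types were compared with the other gated nuclei. The 8 fibroblast markers summed to 82.3 CPM in the aneurysm library, 324 CPM in smoke and 141 CPM in room air, against 511, 715 and 548 CPM in the other gated nuclei, and 7, 0 and 0 of them were at 0. The 8 endothelial markers summed to 82.3, 365 and 301 CPM, with 7, 0 and 1 at 0, against 643, 746 and 770.5 CPM in the others, and the 8 smooth muscle markers to 82.3, 137 and 102 CPM, against 472, 396 and 268 CPM. Adipocyte markers came to 82.3, 248 and 170.0 CPM, against 508, 159.8 and 124 CPM, mostly from Acsl1, an acyl-CoA synthetase, while Adipoq, which defines adipocytes, had 0, 4 and 0 UMIs. The 9 T or NK cell markers summed to 0, 83.0 and 15.5 CPM, with 9, 4 and 7 at 0, the T cell receptor chains Cd3g and Cd3d among those at 0 in smoke. The 10 conventional dendritic cell markers summed to 165, 275 and 166 CPM, and Xcr1, which defines 1 of their classes, was at 0 in smoke; the other gated nuclei had 92.1, 119.9 and 84.3 CPM. Plasmacytoid dendritic markers, nearly all from Tcf4, Runx2 and Bcl11a while Siglech had 0, 1 and 1 UMI, reached 741, 1450 and 1198 CPM, against 1240, 1311 and 1329 CPM in the other gated nuclei. Neutrophil markers came to 0, 129 and 106 CPM, most of it from Csf3r, the receptor for G-CSF, with 8, 6 and 7 of 8 at 0. B cell markers summed to 247, 209 and 102 CPM, against 800.3, 533 and 316 CPM, and mast cell markers had 1 UMI in all.

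The smoke and room air libraries were compared within the subset to ask how these nuclei differed with exposure. Of 8186 genes measured, 14.96% were at least 1.5-fold higher and 13.01% at least 1.5-fold lower in smoke, while among the other gated nuclei 15.96% and 3.36% of 19216 genes were. Among markers of other cell types, fibroblast markers had 4 of 5 measured at least 1.5-fold higher in smoke and a median log2 ratio of 1.33. Conventional dendritic markers had 4 of 5 measured higher, 1 lower and a median log2 ratio of 0.83, the 2 measured B cell markers a median of 0.73 and the 1 measured T or NK cell marker 1.85. Medians were 0.13 for endothelial, 0.26 for smooth muscle, 0.40 for adipocyte, 0.26 for plasmacytoid dendritic and 0.28 for neutrophil markers. The subset's mitochondrial share was lower in smoke, at 0.499% against 1.45%. The part of these in the values that follow was not tested. Of the rule's genes, Adgre4 had a ratio of 1.30 (1.12 to 1.51) and Gpr141 of 1.34 (1.16 to 1.55). Itgal was at 252 CPM in smoke and 224 CPM in room air, a ratio of 1.13 (0.909 to 1.40) whose interval holds 1. Cxcl2 and Plaur had ratios of 2.22 (1.67 to 2.98) and 1.57 (1.25 to 1.99), near those of the other gated nuclei at 1.96 and 1.44.

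Cd300e was at 50.9 CPM in smoke and 11.6 CPM in room air, a ratio of 4.39 (1.92 to 12.4), and in the other gated nuclei the ratio was 2.58. Mx1, an interferon-induced GTPase that restricts viruses, was at 72.6 CPM in smoke and 7.73 CPM in room air (97 UMIs in 22 nuclei and 4 in 4), a ratio of 9.39 (3.55 to 35.2), against 1.41 in the other gated nuclei. Ms4a4a, a tetraspanning protein of macrophages, was at 124 and 34.8 CPM, a ratio of 3.57 (2.19 to 6.18). Ripor2, an inhibitor of RhoA signalling, had a ratio of 2.65 (1.96 to 3.65) and Tnfsf13, the B cell cytokine APRIL, a ratio of 7.17 (1.85 to 61.4) with 2 UMIs in room air. Lypd6b, with 36 UMIs in smoke and 1 in room air, gave 13.9 (2.35 to 566). Ccnd3, the cell cycle protein cyclin D3, was at 586 and 255 CPM, a ratio of 2.30 (1.91 to 2.78), but its log2 ratio was -0.044 after thinning to 1000 UMIs. Negr1, a neural adhesion protein, was at 511 and 81.1 CPM, with 188 of 683 smoke UMIs in 1 nucleus and 22 nuclei in all, and its log2 ratio was -0.053 among nuclei with at least 3 of the 4 genes. Il1b stood at 139.9 CPM in smoke and 63.7 CPM in room air, a ratio of 2.19 (1.51 to 3.28), and Ace, the angiotensin-converting enzyme carried by patrolling monocytes, had a ratio of 2.07 (1.28 to 3.53).

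Among genes lower in smoke, Il31ra, a receptor chain for interleukin-31, was at 50.1 CPM in smoke and 160.3 CPM in room air, a ratio of 0.313 (0.223 to 0.437), and the other gated nuclei gave 0.302. Lars2, the mitochondrial leucyl-tRNA synthetase, was at 278 and 711 CPM, a ratio of 0.391 (0.337 to 0.452), against 0.403 in the other gated nuclei, so both genes were lower in smoke across macrophage nuclei. Cspg4, the proteoglycan NG2, was at 7.48 and 57.9 CPM, a ratio of 0.129 (0.0563 to 0.271), and Trim36, a ubiquitin ligase family member, at 15.7 and 57.9 CPM, a ratio of 0.271 (0.148 to 0.490). For these 2 the other gated nuclei lay on the other side of 1, at 1.41 and 1.26, with no test of the difference, and the room air UMIs lay in 10 and 20 nuclei. Clmp, an adhesion protein, Npas2, a circadian transcription factor, and Cacna1d, a calcium channel subunit, had ratios of 0.0907 (0.0424 to 0.177), 0.139 (0.0766 to 0.243) and 0.314 (0.252 to 0.390), against 0.555, 0.819 and 0.822 in the other gated nuclei. Room air UMIs of Clmp and of Npas2 came from 9 nuclei each. Stac, an adaptor protein, had 0.136 (0.0923 to 0.196), and 27 of its 40 smoke UMIs came from 1 nucleus.

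By list, the median log2 ratio over all genes in the subset was -0.027, and 0.077 in the other gated nuclei. Targets of NRF2, the factor that turns on antioxidant genes, had 5 of 11 measured higher, 1 lower and a median log2 ratio of 0.56 (median bounds of the genes 0.025 to 0.97), while in the other gated nuclei the median was -0.20. Gsr, glutathione reductase, was at 516 CPM in smoke and 339.9 CPM in room air, a ratio of 1.52 (1.29 to 1.80), against 0.874 in the other gated nuclei. Gclm, a subunit of the enzyme that starts glutathione synthesis, had a ratio of 3.03 (1.29 to 8.68), and Me1, the malic enzyme, of 7.17 (1.85 to 61.4) with 26 of 37 smoke UMIs in 1 nucleus. Interferon-response genes had 7 of 15 measured higher, 1 lower and a median log2 ratio of 0.51 (0.43 in the others). MHC class II genes had 1 of 7 measured higher, 1 lower and a median log2 ratio of 0.23, which was -0.032 with at least 3 of the 6 macrophage genes.

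The classical monocyte list had 0 of 11 measured higher, 4 lower and a median log2 ratio of -0.57 (median bounds -1.06 to 0.53). Fn1 was at 259 CPM in smoke and 840.2 CPM in room air, with 104 of 435 room air UMIs in 1 nucleus. The list's median was 1.03 among nuclei with at least 3 of the 4 genes and 0.76 without nuclei that carry markers of another class, so its sign depended on the choice of nuclei. The nonclassical list had 4 of 10 measured higher, 0 lower and a median log2 ratio of 0.41, and was -0.28 among nuclei with at least 3 of the 4 genes. Proliferation genes had 0 of 9 measured higher, 7 lower and a median log2 ratio of -0.83, and -0.11 without the top nucleus of each gene. The aryl hydrocarbon receptor list, whose targets respond to smoke compounds, had only 3 of 5 genes measured and a median of -0.39, against 0.18 in the other gated nuclei. Inflammatory genes were split, with 5 of 17 measured higher, 4 lower and a median log2 ratio of 0.086. Lipid-associated genes had 3 of 16 measured higher, 1 lower and a median log2 ratio of 0.30. Over all genes 14.96% were higher and 13.01% lower. Leukocyte adhesion genes had 2 of 16 measured higher, 0 lower and a median log2 ratio of 0.17, and pattern recognition receptors had 4 of 16 measured higher, 1 lower and a median log2 ratio of 0.23.

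**Figure D5:**
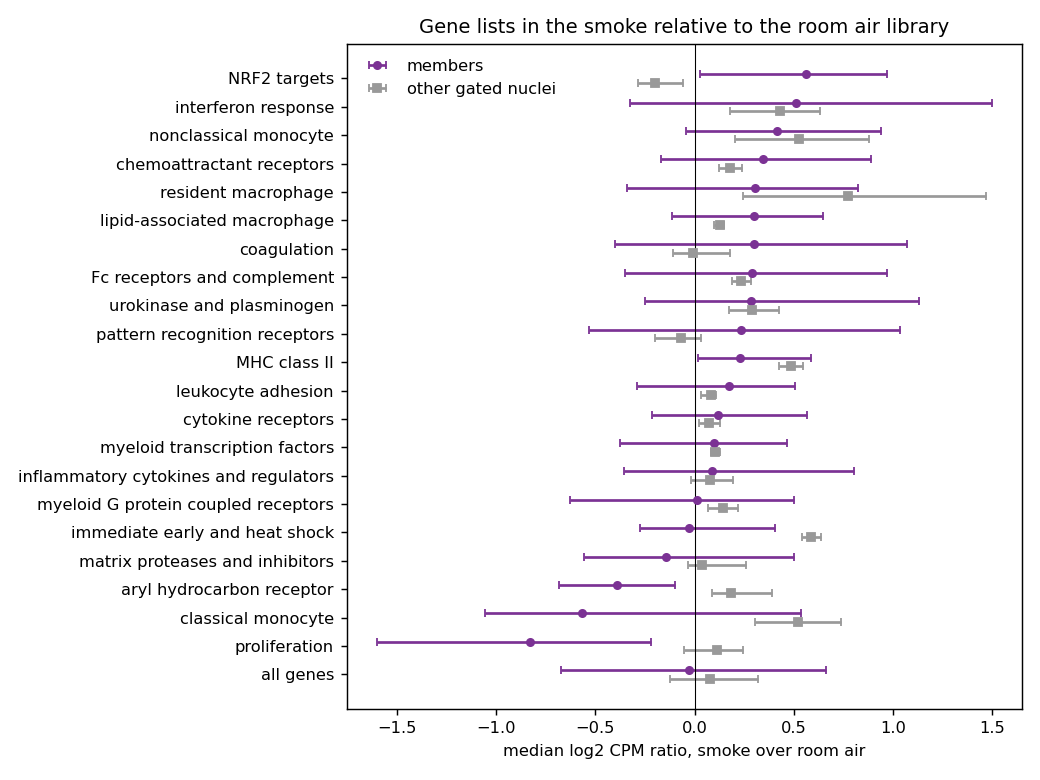
Median log2 ratio of each gene list, smoke over room air, in the Adgre4/Gpr141 nuclei and in the other gated nuclei; horizontal bars run from the median of the genes' lower counting bounds to the median of their upper bounds. The NRF2 list lies at 0.56 in the Adgre4/Gpr141 nuclei and at -0.20 in the others, and most bars of the Adgre4/Gpr141 nuclei reach across 0.

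The aneurysm library held 5 such nuclei with 1379, 2187, 569, 990 and 7022 UMIs, and the largest gave 57.8% of the total. Their rule genes came to 3, 9, 2, 3 and 2 UMIs. Adgre4 had 10 UMIs, Gpr141 6, Klra2 2 and F10 1. Itgal, Plaur, Cxcl2, Treml4 and Plac8 had 0 UMIs. For nuclei with a UMI, 0 of 5 has a Clopper-Pearson upper bound of 52.2%, which does not limit how many express the gene. Nr4a1 had 4 UMIs and Ccr2, Cd300e and Il1b had 1 each, while 20 of 21 Gpnmb UMIs came from 1 nucleus. No comparison over genes was made for this library.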

How the data were processed

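The deposited files were filtered gene-by-barcode matrices of counts, in which the authors counted UMIs per gene and barcode, 1 matrix for each of the 3 libraries. The file headers name cellranger 8.0.1, whereas Cell Ranger 2.2.0 is given, with STAR and mm10, in the submitters' processing notes, and which version made the files was not settled. Nuclei were isolated from frozen aorta, per the labels' protocols. From these counts, nuclei were chosen by the rule given at the head of the report, UMIs were summed over the chosen nuclei of a library and scaled to CPM (UMIs per 1000000), and ratios were taken with exact intervals in scipy 1.17.1 (Python 3.11.15, numpy 2.4.6, pandas 2.3.3). A gene counted as measured from 20 UMIs, summed over the smoke and room air subsets or as the mean of the 2 levels at the subset's depth, and a level of 0 was read against a floor of 3 counts. The 52 of 33696 features that share a symbol were kept apart and none is named. A comparison over genes needed at least 50 nuclei in both libraries, and named genes at least 30 UMIs in the higher group and a counting bound at least 1.5-fold from 1. No doublet caller was run. The scripts were tested on simulated counts. The nuclei, gene lists and rules were chosen with earlier results of these data known. Total UMIs were 15634797 in the aneurysm, 117247048 in the smoke and 73891039 in the room air library.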

Additional observations from a re-analysis of the deposited data

Results flagged for a closer look

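The results below had opposite signs in the Adgre4/Gpr141 nuclei and in the other gated nuclei for smoke over room air, and the difference was not tested. For NRF2 targets the median log2 ratio was 0.56 in the subset and -0.20 in the others. For the aryl hydrocarbon receptor list, with 3 genes measured, it was -0.39 in the subset and 0.18 in the others. Cspg4 had a ratio of 0.129 in the subset and 1.41 in the others, and Trim36 had 0.271 and 1.26.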

How the results depend on the processing

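Of 54 recomputed share ratios 41 stayed within the counting interval of the reported value, as did 586 of 694 list medians, 528 of 797 gene values and 30 of 35 shares of free RNA, while 55 of 76 counts of genes stayed within 1.5 times; among values whose interval lay on 1 side of no difference, 2, 2 and 8 ratios, medians and gene values turned direction. No paired analysis was possible because each group has 1 library. With at least 3 of the 4 genes, which left 0, 72 and 22 nuclei in the aneurysm, smoke and room air libraries, the ratios of shares of nuclei were 2.58 for smoke over room air, 0 for aneurysm over smoke and 0 for aneurysm over room air, and of gated nuclei 2.26, 0 and 0. There, smoke over room air gave 687 genes lower, classical 1.03, nonclassical -0.28, resident -1.23 and Negr1 -0.053, and against other gated nuclei 895 genes were lower in smoke, and 376 higher and 264 lower in room air. With at least 3 of the 6 macrophage genes, MHC class II was -0.032 and 901 genes were lower than in other gated nuclei in smoke. Without the limit on Cd5l and its set, the urokinase list was -0.29 and coagulation -0.45 in smoke over room air. At that setting 53 gene values left the counting interval of the reported value and 17 stayed within it. Leaving out nuclei with 2 markers of another class gave classical 0.76, G protein-coupled receptors 0.58 and MHC class II 0.79 in smoke over room air; against other gated nuclei 687 genes were lower in smoke (Grin2a 0.97, Cemip 1.41, Itgbl1 0.33), and 549 higher and 391 lower in room air (urokinase list -0.017, Ctnna3 0.37, Itgbl1 0.49). Thinned to 1000 UMIs, smoke over room air gave share ratios of 2.52 of nuclei and 2.30 of gated nuclei, 104 genes higher and 79 lower, nonclassical -0.044, lipid-associated -0.23 and Ccnd3 -0.044; against other gated nuclei 92 genes were higher and 53 lower in smoke, and 12 higher and 3 lower in room air, where Cemip was 2.01. Fewer UMIs let fewer genes be measured there. Thinned to 500 UMIs, a setting added after seeing the data, the share ratios of nuclei were 0.900, 0.307 and 0.276 for smoke over room air, aneurysm over smoke and aneurysm over room air, and of gated nuclei 0.772 and 0.786 for the first 2. Without the top nucleus of each gene, 697 genes were lower in smoke over room air and the proliferation median was -0.11. With no UMI minimum, resident was -0.37 and the aryl hydrocarbon receptor list -0.72. With at least 50 UMIs, which tests fewer genes, 535 genes were higher and 480 lower in smoke over room air, 787 and 752 against other gated nuclei in smoke, and 454 and 338 in room air. Except where stated, the cause was not tested. The aneurysm library's values rest on 12147 UMIs in 5 nuclei.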

Other observations

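Receptors for other signals were also higher in the Adgre4/Gpr141 nuclei than in the other gated nuclei. Cytokine receptors had 9 of 16 measured higher, 2 lower and a median log2 ratio of 0.77 in smoke and 8 of 15 measured higher, 2 lower and a median log2 ratio of 0.68 in room air. Il17ra, the interleukin-17 receptor, was at 182 CPM in smoke and 153 CPM in room air, against 30.3 and 29.9 CPM. Il1r2, the decoy receptor that binds interleukin-1, was at 218 CPM in smoke and 108 CPM in room air, against 49.3 and 36.7 CPM. G protein-coupled receptors of myeloid cells besides the rule's pair had 6 of 10 measured higher, 1 lower and a median log2 ratio of 0.82 in smoke and 5 of 7 measured higher, 0 lower and a median log2 ratio of 1.24 in room air. Gpr132, a receptor for oxidised lipids and lactate, was at 100.2 CPM in smoke and 114 CPM in room air, against 17.3 and 18.9 CPM. Gpr141b, a related receptor gene, had 0 UMIs in smoke and 1 in room air.

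Myeloid transcription factors had 12 of 20 measured higher, 3 lower and a median log2 ratio of 0.61 in smoke and 10 of 17 measured higher, 2 lower and a median log2 ratio of 0.74 in room air. Cebpb, a factor of monocyte survival and inflammatory genes, was at 243 CPM in smoke and 352 CPM in room air, against 72.9 and 63.1 CPM, and Runx1 at 2062 CPM in smoke and 1671 CPM in room air, against 1099 and 1006 CPM. NRF2 targets had 6 of 9 measured higher, 0 lower and a median log2 ratio of 0.65 in smoke and 2 of 6 measured higher, 1 lower and a median log2 ratio of 0.073 in room air. Slc7a11, the cystine importer, was at 307 CPM in smoke and 265 CPM in room air, against 38.4 and 45.0 CPM. Immediate early and heat shock genes had 6 of 13 measured higher, 1 lower and a median log2 ratio of 0.58 in smoke and 8 of 12 measured higher, 1 lower and a median log2 ratio of 1.01 in room air, but medians of -0.53 and -0.55 over the F13a1-high nuclei. Fc receptor and complement genes had 6 of 14 measured higher, 3 lower and a median log2 ratio of 0.29 in smoke and 3 of 7 measured higher, 2 lower and a median log2 ratio of -0.17 in room air. Fcer1g, the common signalling chain of Fc receptors, was at 177 CPM in smoke and 176 CPM in room air, against 68.7 and 52.2 CPM. Proliferation genes had 5 of 7 measured higher, 0 lower and a median log2 ratio of 0.70 in smoke and 4 of 4 measured higher, 0 lower and a median log2 ratio of 1.52 in room air. Dpp4, a surface peptidase on the conventional dendritic list, was at 152 CPM in smoke and 85.0 CPM in room air, against 28.8 and 20.0 CPM. Csf3r was at 129 CPM in smoke and 106 CPM in room air, against 52.8 and 52.4 CPM.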
